A study of Mus musculus with 28 samples.

Results

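PKR-associated RNA was compared between mouse embryonic fibroblasts (MEF) with a PKR whose double-stranded RNA-binding motifs were all mutated (labelled RM, genotype PKR dsRBD mutant) and MEF with wild-type PKR (WT), both without palmitate. Per the labels, the cells of both groups were reconstituted with their form of PKR and mock-treated, and RNA was isolated from the immunoprecipitate with Trizol, fragmented and cloned with a small RNA kit. There were 3 libraries a side, which the labels call biological replicates, out of 28 in the whole series, and all 6 belong to the dataset labelled A. Further libraries entered only as a setting for these 6. They were 3 RM and 3 WT libraries of dataset A from cells given 0.1 mM palmitic acid, and the same 4 groups, with 3 libraries each, of a dataset labelled B. The labels do not give the age or strain of the embryos, whether a group is 1 clone, or whether the cells kept a copy of the native PKR gene. Column names of dataset B contain 2hr, which the labels leave unexplained.

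PKR, encoded by Eif2ak2, binds double-stranded RNA through a pair of motifs next to its kinase domain. Binding to long duplexes lets kinase molecules meet and activate each other, after which PKR phosphorylates the translation factor eIF2 alpha and slows protein synthesis. Known sources of duplex RNA in a cell without a virus include the mitochondrial genome, which is transcribed from both strands, and mRNAs in which copies of a short interspersed repeat lie in opposite directions and can fold back on each other.

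The deposited counts covered 30210 features per library and summed to 5025829 to 8036622 in RM and to 3552968 to 4277434 in WT. Counts of WT and RM libraries stand in separate deposited tables, so a difference in how those tables were made cannot be told apart from a difference between the groups. None of the samples used here is an input or a control precipitate, so more of an RNA in the cells, more of it on PKR and a different background of the precipitate cannot be told apart either. Small nucleolar RNAs and ribosomal sequence took much of every library. C/D box snoRNAs held 19.8%, 15% and 11.3% of counts in RM libraries 1, 2 and 3, against 6.33%, 6.28% and 11.3% in WT libraries 1, 2 and 3. Features annotated as nuclear rRNA held 10.8%, 10.5% and 11.3% in RM, against 20.5%, 19.7% and 19% in WT. Over 14 RNA classes, each such difference in share without overlap of the groups had an exact two-sided permutation p of 0.1, the smallest that 3 against 3 libraries can give, and 0.156 after adjustment. Levels are in CPM, the count of a feature as a part of its library's total, with totals scaled by the trimmed mean of M values, and fold changes are RM over WT on the log2 scale from edgeR's quasi-likelihood fit.

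Of 11328 features tested, 424 (3.74%) differed between RM and WT at an adjusted p under 0.05. They comprised 343 (3.03%) that were lower in RM and 81 (0.715%) that were higher. The lower features also differed by more. Among them 269 were over 2-fold lower, 130 over 4-fold lower and 18 over 16-fold lower, whereas 45 of the higher features were over 2-fold higher and 11 over 4-fold higher. The median of all features tested was -0.01. In all 424 the RM and WT libraries did not overlap, beside 32.6% of all features tested whose libraries did not overlap (17.5% lower in RM and 15.1% higher). Leaving out RM mock library 1, 2 or 3 left 247, 207 or 273 features, leaving out WT mock library 1 or 2 left 229 or 200, and scaling by total counts left 240. Without 1 RM palmitate library of 254762 counts that shares the fit, 778 features passed, 536 lower and 242 higher. Fitted on the 6 mock libraries alone, 1552 passed, 944 lower and 608 higher, so that the higher features made up 39.2% of those called.

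**Figure D1:**
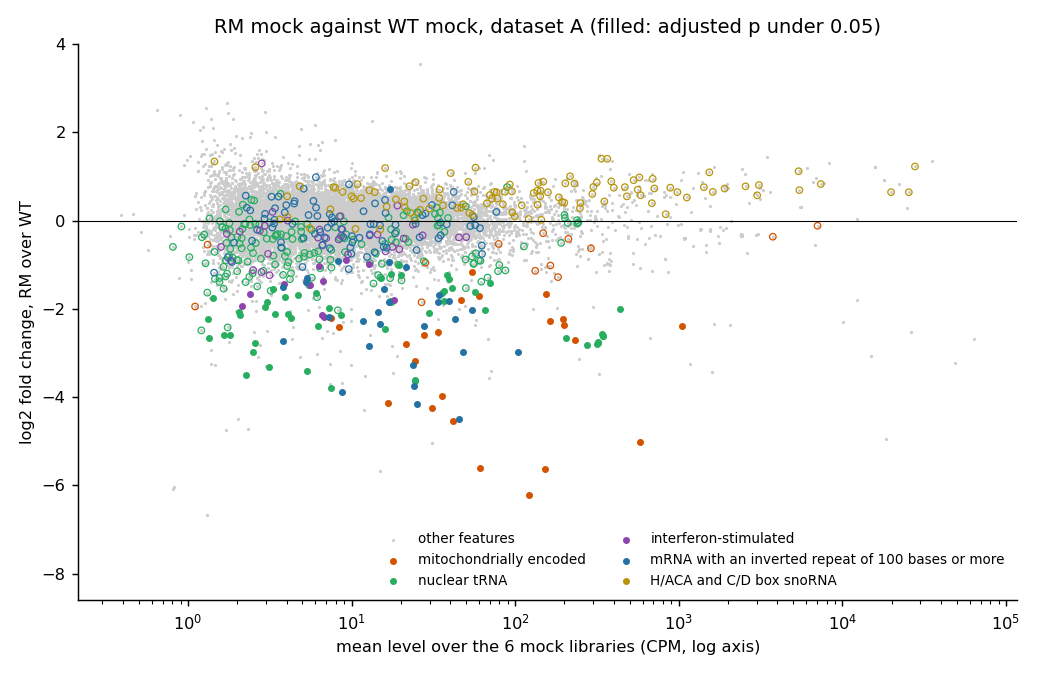
Each point is 1 of the 11328 features tested, with its mean level over the 6 mock libraries of dataset A on a log axis (CPM) and its log2 fold change, RM over WT, on the vertical axis. Coloured points are mitochondrially encoded RNAs, nuclear tRNA features, interferon-stimulated genes, mRNAs with an inverted repeat and box snoRNAs, filled where the adjusted p was under 0.05. The filled points lie below 0 apart from 1 mRNA with an inverted repeat (Tbp), and the snoRNAs, mostly just above 0, are all open.

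Mitochondrially encoded RNAs were among the groups lowest in RM. Of 13 mitochondrial mRNAs, 7 were lower in RM and none higher, with a median of -1.85, and of 21 mitochondrial tRNAs tested, 16 were lower and none higher, with a median of -2.41, beside 3.03% of all features called lower. Without RM mock library 1 or 2 the mRNAs called lower numbered 4. The 12S and 16S rRNAs (mt-Rnr1 and mt-Rnr2) were not called. The largest difference was in mt-Nd6, a subunit of respiratory complex I and the only mRNA of the mitochondrial light strand. It lies at chrM:13552-14070 (mm9, minus strand). mt-Nd6 had 2.43, 3.77 and 3.26 CPM in the RM libraries, against 299.6, 218 and 198 CPM in the WT libraries. The groups did not overlap, and mt-Nd6 was 75-fold lower in RM, a log2 fold change of -6.23 ± 0.53 (SE; adjusted p = 1.99e-06). The whole mitochondrial share of counts overlapped between the groups, at 0.827%, 1.30% and 1.83% in RM and 2.22%, 1.95% and 1.30% in WT, since the rRNAs held most of it. mt-Rnr2 had 6356, 7001 and 6909 CPM in the RM libraries, against 9070.0, 7069 and 5865 CPM in the WT libraries, so that the groups overlapped, with a log2 fold change of -0.12 ± 0.47 (SE; adjusted p = 0.926).

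Features on the minus strand were lower throughout. All 9 tested on that strand were called lower in RM, with a median of -3.17, against 14 of the 27 on the plus strand, with a median of -1.79. Several of the lowest plus-strand features overlap or adjoin a minus-strand gene. mt-Nd5, also a subunit of complex I, ends in mt-Nd6 from the other strand (chrM:11742-13565, plus strand). It had 29.2, 31.0 and 43.3 CPM in the RM libraries, against 1228, 1204 and 925 CPM in the WT libraries, a log2 fold change of -5.02 ± 0.50 (SE; adjusted p = 2.83e-06). The last 30 bases of both transcripts are shown because their final 14 bases, in capitals, are complementary, so that both RNAs can pair there.
mt-Nd5: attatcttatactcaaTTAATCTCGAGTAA
mt-Nd6: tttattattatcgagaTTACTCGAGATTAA

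The tRNA genes mt-Ti (isoleucine, chrM:3706-3774, plus strand) and mt-Tq (glutamine, chrM:3772-3842, minus strand) also overlap from opposite strands, but only by their last 3 bases, in capitals. mt-Ti had 7.90, 5.65 and 4.45 CPM in the RM libraries, against 284, 338 and 275 CPM in the WT libraries, with -5.63 ± 0.46 (SE; adjusted p = 5.56e-07) on the log2 scale. mt-Tq had 89.0, 57.2 and 38.5 CPM in the RM libraries, against 374, 390.5 and 434 CPM in the WT libraries, with -2.70 ± 0.40 (SE; adjusted p = 2.80e-04). RM lay below WT in every library of both, and the difference was the larger in mt-Ti. mt-Ts1, a serine tRNA on the minus strand that overlaps the end of mt-Co1, was at -5.61. Whether reads were counted by strand is not given in the sources used here, so reads of overlapping partners may have been counted for either.
mt-Ti: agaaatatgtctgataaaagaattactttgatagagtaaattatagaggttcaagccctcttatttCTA
mt-Tq: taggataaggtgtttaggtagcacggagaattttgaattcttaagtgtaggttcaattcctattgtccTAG

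Along the plus strand the difference was small at the start of the map and larger further on. mt-Tf, mt-Rnr1, mt-Tv, mt-Rnr2, mt-Tl1 and mt-Nd1, the first 6 features in order, had log2 fold changes of -0.55, -0.37, -0.42, -0.12, -0.29 and -1.14, and none was called. At the far end mt-Cytb, a subunit of complex III, was at -2.38 ± 0.47 (SE; adjusted p = 0.00498), and mt-Tt, the threonine tRNA, at -4.54 ± 0.36 (SE; adjusted p = 9.75e-07). Between them lay a stretch that was not called, from mt-Co2 (-0.63) through mt-Atp8 (-0.96) and mt-Atp6 (-1.02) to mt-Co3 (-1.28), apart from mt-Tk (-2.21 ± 0.27 (SE; adjusted p = 3.54e-05)). mt-Co1, the catalytic subunit of complex IV, had 224, 336 and 455 CPM in RM, against 1921, 1964 and 1416 CPM in WT, with a log2 fold change of -2.38 ± 0.49 (SE; adjusted p = 0.00681). That call was lost without RM mock library 1 and without RM mock library 2.

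**Figure D2:**
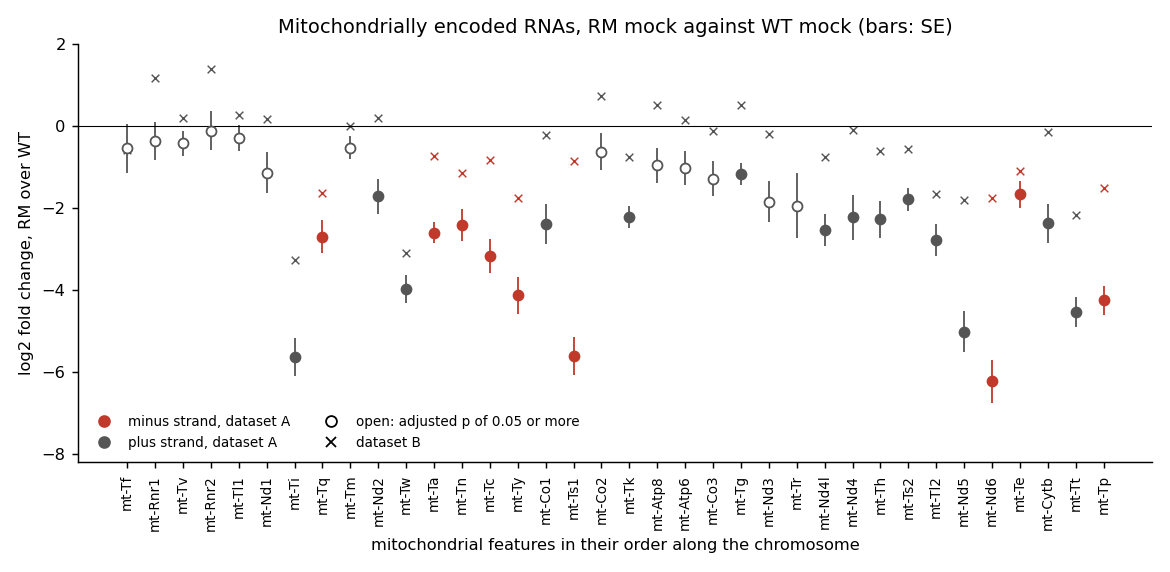
Log2 fold changes, RM over WT, of the mitochondrial features tested, in their order along the chromosome (circles, dataset A mock, with SE bars; crosses, dataset B mock). Red circles, for the minus strand, are all filled (adjusted p under 0.05) and lie between -1.67 and -6.23, and the open circles at the left are the rRNAs and their neighbours.

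Some nuclear mRNAs called lower in RM are grouped here for the inverted repeats described below. Those named in this paragraph are the lowest of them, so the size of their differences follows from that choice. The lowest was Eapp, which encodes an E2F-associated phosphoprotein. Eapp (chr12:55771327-55796884, mm9, minus strand) had 4.56, 2.32 and 4.74 CPM in the RM libraries, against 101, 99.2 and 61.6 CPM in the WT libraries, a log2 fold change of -4.49 ± 0.41 (SE; adjusted p = 1.29e-05). Car5b, a mitochondrial carbonic anhydrase, had 2.73, 2.75 and 2.37 CPM in the RM libraries, against 52.7, 53.9 and 35.1 CPM in the WT libraries (-4.17 ± 0.35 (SE; adjusted p = 1.99e-06)). Nmnat1, the nuclear enzyme that makes NAD from nicotinamide mononucleotide, had 1.67, 1.01 and 0.593 CPM in the RM libraries, against 19.1, 13.9 and 16.2 CPM in the WT libraries (-3.88 ± 0.46 (SE; adjusted p = 7.94e-05)). In each of these genes all 3 RM libraries lay below all 3 WT libraries. Wdr76, a WD-repeat protein, was at -3.75 ± 0.42 (SE; adjusted p = 1.08e-04), and Rnf168, a ubiquitin ligase of the DNA damage response, at -3.27 ± 0.37 (SE; adjusted p = 8.10e-05). Rpa1, the large subunit of the protein that coats single-stranded DNA, had 26.0, 22.0 and 21.9 CPM in the RM libraries, against 246, 159 and 149.6 CPM in the WT libraries, with -2.99 ± 0.32 (SE; adjusted p = 7.72e-06).

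The mRNAs just named were grouped because they hold inverted repeats, a stretch that occurs again in the same transcript as its reverse complement. That they share this feature is therefore no result. Inverted repeats were looked for after the values had been seen, beside overlap with other genes, feature length and likeness to abundant RNAs. Their counts over all mRNAs are a description with no test. An inverted repeat was counted where a transcript matched its own reverse complement over at least 100 bases at 70% identity or more. Of the 221 nuclear mRNAs called lower in RM, 27 (12.2%) held one, against 85 of 9483 mRNAs not called (0.896%) and 1 of 60 called higher. Among the 44 mRNAs over 4-fold lower, 16 held one (36.4%) and the rest did not. Counted the other way, 27 of 113 mRNAs with such a repeat were called lower (23.9%), against 194 of 9651 without one (2.01%), beside 2.26% of all 9764 nuclear mRNAs tested. The share called lower was larger with longer repeats below 100 bases, on few mRNAs, and level from there on. It was 1.94% (186 of 9563) with none of 50 bases or more, 4.55% (2 of 44) from 50 to 74 bases and 13.6% (6 of 44) from 75 to 99. From 100 to under 150 bases it was 23.8% (15 of 63) and from 150 up 24% (12 of 50). Most mRNAs with a repeat were nevertheless not called, and their median log2 fold change was -0.33, against 0.00 without one.

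In the 27 lower mRNAs with a repeat both arms lay in the 3′ untranslated region, as they did in 109 of the 113. The matched arms of the 27 were 108 to 307 bases long (median 148), at 72.3% to 90.1% identity. Transcripts with a repeat were longer than those without (medians of 6155 and 3388 bases), and the part of transcript length in these counts was not tested. Medians were 3060 bases over all lower mRNAs and 3410 bases over those not called. For the 4 lowest of the 27, the longest stretches, up to 30 bases, in which both arms pair without a mismatch are given. Each arm is read 5′ to 3′, so that arm 2 is the reverse complement of arm 1. The GENCODE M21 transcripts were used, and the arms lie within longer matches of 202 bases in Eapp, 161 in Car5b, 130 in Nmnat1 and 307 in Wdr76.
Eapp arm 1: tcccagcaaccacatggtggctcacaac
Eapp arm 2: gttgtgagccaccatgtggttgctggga
Car5b arm 1: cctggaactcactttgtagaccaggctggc
Car5b arm 2: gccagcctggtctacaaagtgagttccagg
Nmnat1 arm 1: gagccatctctccagccc
Nmnat1 arm 2: gggctggagagatggctc
Wdr76 arm 1: tctgggaacttttcagagg
Wdr76 arm 2: cctctgaaaagttcccaga

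The other mRNAs with a repeat that were lower in RM served varied functions. Slc35e2, of a family of nucleotide sugar transporters, was at -2.98 ± 0.30 (SE; adjusted p = 5.12e-06) with a repeat of 169 bases. Deptor, an inhibitor of the kinase mTOR, had 11.1, 17.2 and 17.2 CPM in RM, against 77.6, 83.3 and 51.6 CPM in WT (-2.22 ± 0.29 (SE; adjusted p = 9.64e-05)). Il17rd, which dampens fibroblast growth factor signalling, was at -2.02 ± 0.24 (SE; adjusted p = 1.86e-05). Nudt21, a subunit of the factor that sets the site of mRNA cleavage, was at -2.34 ± 0.31 (SE; adjusted p = 1.21e-04), and Fbxl18, an F-box protein, at -1.85 ± 0.24 (SE; adjusted p = 7.81e-05). Gla, the lysosomal alpha-galactosidase, was near the threshold (-1.30 ± 0.35 (SE; adjusted p = 0.0420)) and lost its call without any 1 of the 6 mock libraries. The remaining members ranged down to -2.85 (Pxmp4, a peroxisomal membrane protein). The 1 mRNA with a repeat that was higher in RM was Tbp, the TATA-binding protein, with 20.5, 21.6 and 22.1 CPM in RM, against 11.6, 13.4 and 14 CPM in WT (0.72 ± 0.18 (SE; adjusted p = 0.0305)), a call that was likewise lost without any 1 mock library.

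**Figure D3:**
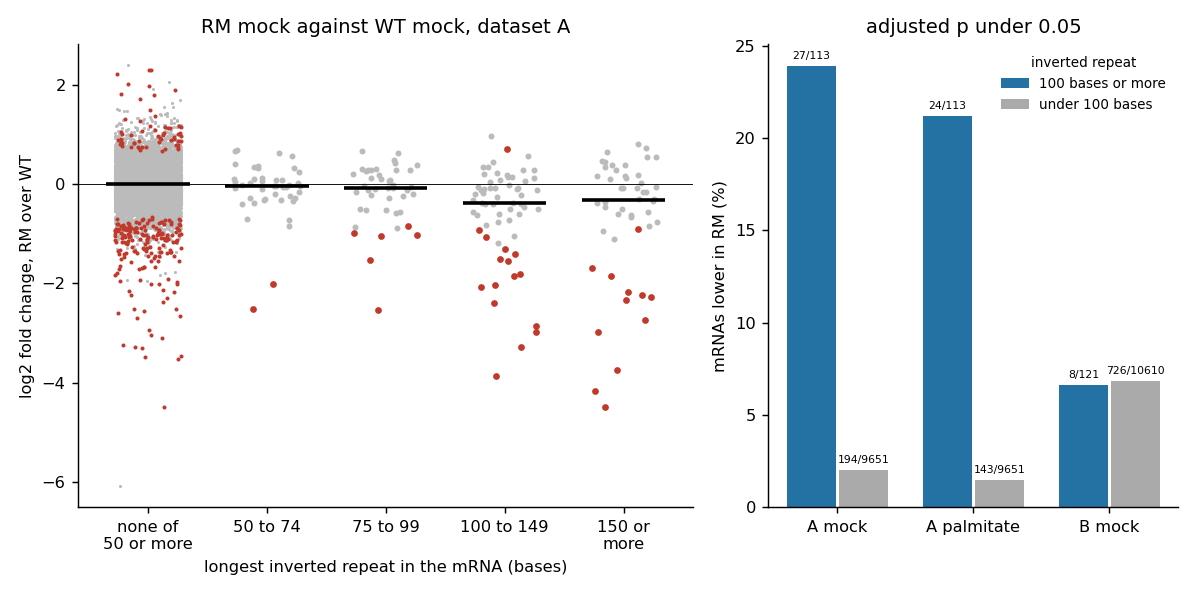
Left, log2 fold change, RM over WT, of each nuclear mRNA by its longest inverted repeat (red, adjusted p under 0.05; bar, median). Right, the percentage of mRNAs called lower in RM in 3 comparisons, with a repeat of 100 bases or more (blue) and without (grey), and the counts above the bars; in the mock and palmitate libraries of dataset A the blue bars reach 23.9% and 21.2%, and in dataset B both bars lie near 7%.

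Some of the most abundant features of the precipitates were also lower in RM. Lars2, named for the mitochondrial leucyl-tRNA synthetase, held 1.5%, 1.86% and 2.22% of RM counts, against 11%, 12.6% and 8.23% of WT counts, with a log2 fold change of -2.69 ± 0.58 (SE; adjusted p = 0.00939). It was not called without RM mock library 2 or 3. The 5.8S rRNA feature n-R5-8s1 had 12420.0, 8824 and 7029 CPM in the RM libraries, against 88430.0, 79560.0 and 95160.0 CPM in the WT libraries (-3.22 ± 0.62 (SE; adjusted p = 0.00373)). All features named as 5S or 5.8S genes summed to 13850 to 14420 CPM of all counts in RM and 83400 to 95580 in WT. Most of that sum was n-R5-8s1. AA474408 had 3394, 3312 and 2824 CPM in RM, against 23280.0, 33350.0 and 23870.0 CPM in WT (-3.08 ± 0.54 (SE; adjusted p = 0.00140)). Of the 98 tested features annotated as nuclear rRNA, 16 were lower and 4 higher, with a median of -0.34, beside 3.03% and 0.715% of all features tested. Of the 31 among them that are named as 5S or 5.8S genes (n-R5), 11 were lower and 2 higher, with a median of -1.02, and these higher ones, n-R5s27 and n-R5s37, were rare (at most 4.25 CPM) and lost their call without RM mock library 1 or WT mock library 1 or 2. ENSMUSG00000092984 and ENSMUSG00000093337, annotated in the files as miRNA, were at -2.53 ± 0.62 (SE; adjusted p = 0.0245) and -2.30 ± 0.53 (SE; adjusted p = 0.0160), and each lost its call when any 1 of RM mock libraries 1, 2 and 3 and WT mock libraries 1 and 2 was left out.

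One family of near-identical features of 56 or 57 bases, also annotated as miRNA, was lower as a whole. Gm23935 (chr16:11144218-11144274, mm9, plus strand) had 1787, 989.8 and 699 CPM in the RM libraries, against 34140.0, 34970.0 and 37720.0 CPM in the WT libraries, with a log2 fold change of -4.94 ± 0.66 (SE; adjusted p = 8.93e-05). Gm24270, whose sequence is the same, was at -2.37, Gm24245, again the same, at -3.13, Gm24187 at -2.33, Gm23388 at -3.58 and Gm25911 at -3.43, and all were called. How reads that match several copies were assigned is not given in the sources used here, so the split between copies is uncertain. The 3 sequences below differ by G11A in Gm24187 and by G2T, C16G, G21T and G48T in Gm23388, counted from 1 at the 5′ end of Gm23935, with the differing bases in capitals.
Gm23935: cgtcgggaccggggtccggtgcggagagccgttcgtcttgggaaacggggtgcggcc
Gm24187: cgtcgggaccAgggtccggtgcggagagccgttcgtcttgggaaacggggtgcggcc
Gm23388: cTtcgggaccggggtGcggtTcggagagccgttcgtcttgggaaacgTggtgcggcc

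Nuclear tRNA features were lower as well, and unevenly across amino acids. Of 221 tested, 51 were lower in RM and none higher, with a median of -0.86, beside 3.03% of all features called lower, on a list chosen after the values had been seen. The count was 33 without RM mock library 2 and 34 without WT mock library 2 or 3. Together they held 0.454%, 0.495% and 0.541% of RM counts, against 1.05%, 0.980% and 0.967% of WT counts. Glutamate tRNAs stood at 16 of 18 called lower (median -2.06) and methionine tRNAs at 7 of 14 (median -1.47). Of 14 glutamine, 10 histidine, 13 proline and 6 tyrosine tRNAs none was called, with medians of -0.47, 0.11, -0.62 and -0.72. The glutamate tRNA chr3.tRNA303-GluCTC (chr3:96962008-96962079, mm9, plus strand) had 86.3, 69.8 and 48.8 CPM in the RM libraries, against 532, 422 and 499 CPM in the WT libraries, a log2 fold change of -2.83 ± 0.43 (SE; adjusted p = 3.32e-04). The glycine tRNA chr17.tRNA113-GlyCCC was at -3.64 ± 0.42 (SE; adjusted p = 1.48e-04), although 2 of 26 glycine tRNAs were called in all. Copies of a tRNA gene can share their sequence, so counts of single copies are uncertain.

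Some mRNAs of interferon-stimulated genes were lower in RM. Of 11 interferon-induced RNA sensors and effectors tested, 3 were lower in RM and none higher (median -0.39), and of 33 other interferon-stimulated genes 8 were lower and none higher (median -0.60), beside 3.03% of all features called lower. With no filter, and with the 6 mock libraries alone, 1 of the sensors was called higher. The 8 became 1 without WT mock library 2, 2 without RM mock library 2, 3 without RM mock library 1 and 4 without RM mock library 3 or WT mock library 1. Ifit1, which binds foreign 5′ ends of RNA, had 2.58, 1.45 and 3.41 CPM in the RM libraries, against 10.2, 14.8 and 8.40 CPM in the WT libraries (-2.18 ± 0.31 (SE; adjusted p = 2.07e-04)). Ifit3, its partner, had 2.73, 1.88 and 2.82 CPM in the RM libraries, against 10.5, 15.3 and 6.53 CPM in the WT libraries (-2.14 ± 0.33 (SE; adjusted p = 3.85e-04)). Both lay lower in each RM library than in any WT library. Oasl2, a relative of the oligoadenylate synthetases, was at -1.37 ± 0.32 (SE; adjusted p = 0.0191). Among the others were Dtx3l, a ubiquitin ligase (-1.79 ± 0.23 (SE; adjusted p = 6.01e-05)), Usp18, the protease that removes ISG15 (-1.93 ± 0.47 (SE; adjusted p = 0.0228)), and Bst2, or tetherin (-1.67 ± 0.42 (SE; adjusted p = 0.0308)). The guanylate-binding protein Gbp3 was at -1.46 ± 0.29 (SE; adjusted p = 0.00434) and Gbp2 at -0.99 ± 0.25 (SE; adjusted p = 0.0297). Ifi44, Irgm1 and Lgals3bp were at -1.44, -1.02 and -0.89. Ifit1, Ifit3 and Dtx3l were called under all 14 alternative settings and Gbp3 under 13, all but the one without WT mock library 2. The calls of Oasl2, Usp18, Bst2, Gbp2, Ifi44, Irgm1 and Lgals3bp were lost with scaling by total counts, and each was also lost without RM mock library 2 and without WT mock library 2. Summed over each list the RM and WT libraries overlapped, at 60.4 to 97.5 CPM of all counts in RM and 80.5 to 134 in WT for the sensors.

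The interferon-stimulated response element, written here as GAAANNGAAA on either strand, was sought from 250 bases before to 50 bases after the gene start. Of 34 tested interferon-stimulated genes with a promoter sequence 15 held it (44.1%), against 1079 of 27025 genes (3.99%). The list was made of known interferon-stimulated genes, so that contrast follows from the list and does not bear on RM against WT. The element was present in 6 of the 10 that were lower in RM and had a sequence, namely Bst2, Gbp2, Gbp3, Ifit1, Ifit3 and Irgm1. Whether it was more frequent in these than in the other listed genes was not tested. The promoters of the 2 lowest genes are shown (RefSeq, GRCm38.p6, plus strand, chr19:34640639-34640938 and chr19:34583279-34583578), with the matches in capitals. Each holds a pair of matches close together.
Ifit1: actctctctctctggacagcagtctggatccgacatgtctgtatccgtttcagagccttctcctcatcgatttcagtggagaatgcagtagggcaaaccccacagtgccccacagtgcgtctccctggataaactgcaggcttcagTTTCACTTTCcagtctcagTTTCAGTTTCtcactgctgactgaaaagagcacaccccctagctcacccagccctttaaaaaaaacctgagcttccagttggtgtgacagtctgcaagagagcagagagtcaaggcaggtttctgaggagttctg
Ifit3: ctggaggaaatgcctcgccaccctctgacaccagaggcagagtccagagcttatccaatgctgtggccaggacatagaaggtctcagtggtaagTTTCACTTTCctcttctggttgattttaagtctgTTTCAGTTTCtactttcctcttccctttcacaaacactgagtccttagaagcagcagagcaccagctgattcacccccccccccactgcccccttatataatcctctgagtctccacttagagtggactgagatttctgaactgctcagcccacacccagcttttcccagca

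Smaller groups of mRNAs had members that were lower, to be read beside the 3.03% of all features called lower. Of 62 replication-dependent histone mRNAs, which end in a stem-loop instead of a poly(A) tail, 7 were lower and none higher (median -0.58, but -0.36 without WT mock library 1). The count was 4 without RM mock library 1 and 3 without WT mock library 1 or 2. Hist1h4c had 8.20, 6.81 and 10.1 CPM in the RM libraries, against 28.2, 31.2 and 20.2 CPM in the WT libraries (-1.67 ± 0.27 (SE; adjusted p = 8.18e-04)), and the others, Hist1h4h, Hist1h2ad, Hist1h4k, Hist1h2ac, Hist1h2bl and Hist1h4j, were at -1.49 to -1.18. The calls of Hist1h4c, Hist1h4h and Hist1h2ad held under all 14 alternative settings, and those of the other 4 were lost without RM mock library 1 and without WT mock library 1 or 2. Many histone genes are near-identical, so their counts are uncertain. Of 77 ribosomal protein mRNAs 5 were lower (median -0.13, but 0.08 with scaling by total counts, which moved the median of all features to 0.18, and between -0.22 and -0.019 as single mock libraries were left out), led by Rplp2 (-1.71 ± 0.30 (SE; adjusted p = 0.00207)) and Rplp1 (-1.17 ± 0.27 (SE; adjusted p = 0.0199)), which form the acidic stalk of the large subunit. Of 25 mRNAs of the integrated and ER stress response 2 were lower (median -0.23, but -0.09 without WT mock library 1, -0.12 without RM mock library 1 and -0.37 without WT mock library 3), Xbp1, a transcription factor of the unfolded protein response (-1.55 ± 0.26 (SE; adjusted p = 8.46e-04)), and Pdia6, a protein disulfide isomerase (-1.01 ± 0.23 (SE; adjusted p = 0.0152)). Of 13 imprinted mRNAs 3 were lower (median -0.56), Cdkn1c, an inhibitor of cyclin-dependent kinases (-1.96 ± 0.28 (SE; adjusted p = 1.52e-04)), Dlk1, a Notch ligand homologue (-1.03 ± 0.18 (SE; adjusted p = 0.00143)), and Mest, a hydrolase family member (-0.95 ± 0.23 (SE; adjusted p = 0.0246)). Tyms, or thymidylate synthase (-1.03 ± 0.28 (SE; adjusted p = 0.0443)), was the 1 lower mRNA of 31 cell cycle genes (3.23%), a share near that of all features. Of the single genes in these last 4 groups, Rplp2, Xbp1 and Cdkn1c were called under all 14 alternative settings and Dlk1 under 13, whereas the calls of Rplp1, Pdia6, Mest and Tyms were lost without RM mock library 2 and without WT mock library 1 or 2.

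**Figure D4:**
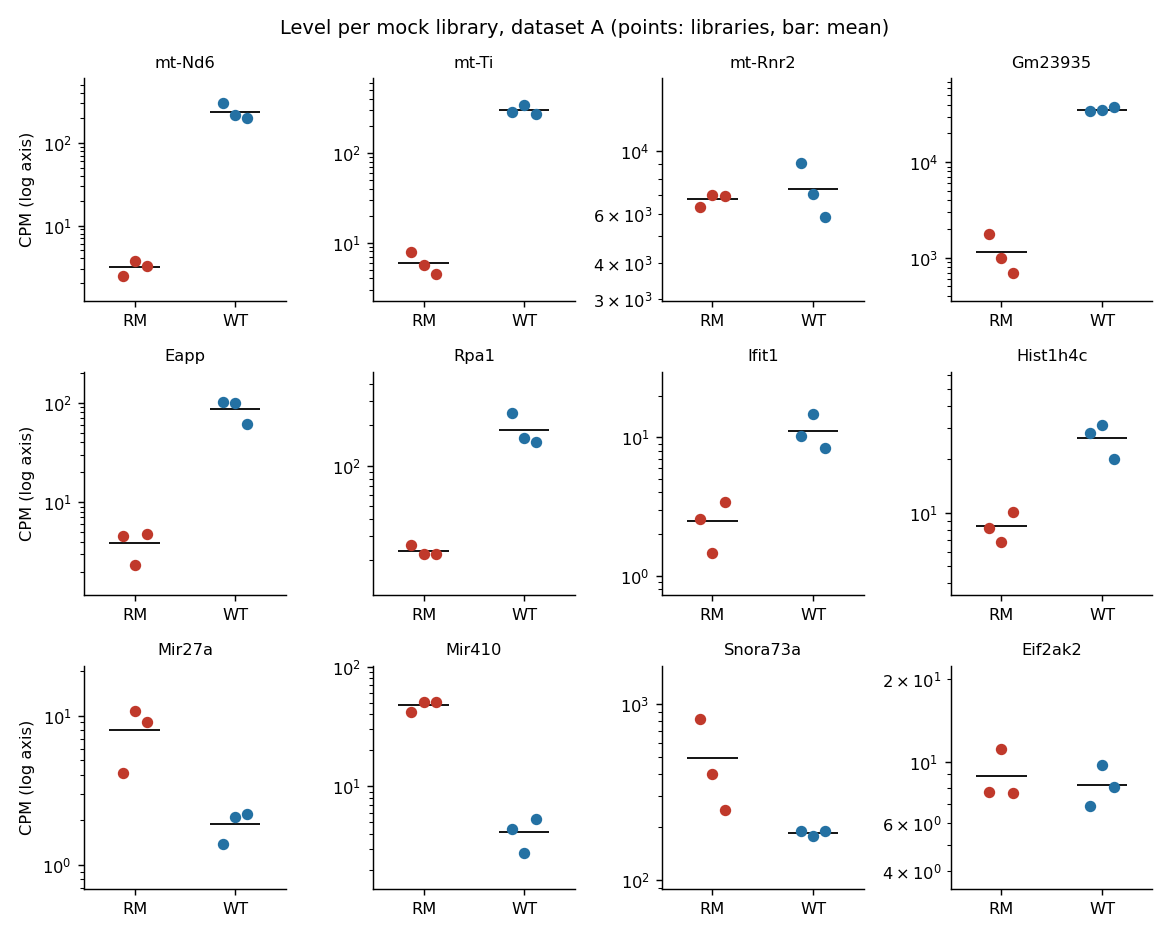
Level of 12 features in each mock library of dataset A (points; CPM on a log axis of its own for each feature), RM left and WT right, with the mean as a bar. RM libraries lie apart from and below WT libraries in mt-Nd6, mt-Ti, Gm23935, Eapp, Rpa1, Ifit1 and Hist1h4c, above them in Mir27a, Mir410 and Snora73a (not called), and overlap them in mt-Rnr2 and Eif2ak2.

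Features higher in RM were fewer and mostly of low level, and miRNAs were among them. Of 178 features tested under a miRNA name 9 were higher and 1 lower, with a median of 0.12, beside 0.715% of all features called higher. Leaving out 1 mock library moved that median between 0.01 and 0.27, and 3 were higher without WT mock library 1 and 4 without RM mock library 2 or WT mock library 2. Of the 209 tested features that the files annotate as miRNA, which take in the family of 56 or 57 bases, 10 were higher and 13 lower. Together these annotated features held 3.95%, 5.74% and 8.45% of counts in RM, against 15.6%, 14.9% and 13.45% in WT. Mir410, of the imprinted miRNA cluster downstream of Dlk1 (chr12:110981925-110982005, mm9, plus strand), had 42.1, 50.8 and 50.7 CPM in the RM libraries, against 4.42, 2.78 and 5.29 CPM in the WT libraries, a log2 fold change of 3.54 ± 0.80 (SE; adjusted p = 0.0470). It passed under 6 of 14 alternative settings and under none that left out a mock library. Mir23a and Mir27a, which lie next to each other on chromosome 8, were both higher. Mir27a had 4.10, 10.7 and 9.04 CPM in the RM libraries, against 1.38, 2.08 and 2.18 CPM in the WT libraries (2.07 ± 0.43 (SE; adjusted p = 0.00875)), and Mir23a had 12.4, 13.3 and 17.1 CPM in the RM libraries, against 4.42, 5.78 and 7.16 CPM in the WT libraries (1.31 ± 0.28 (SE; adjusted p = 0.00779)). Mir192 was at 1.83 ± 0.34 (SE; adjusted p = 0.00305) and Mir671 at 2.46 ± 0.51 (SE; adjusted p = 0.00742), and all RM libraries of these 5 miRNAs lay above all WT libraries. Mir192 was called under all 14 alternative settings. Mir27a lost its call without RM mock library 2 or WT mock library 1, Mir23a without WT mock library 1, and Mir671 without WT mock library 2. Mir3102, the lower one, had 0.456, 1.01 and 1.48 CPM in RM, against 8.28, 8.33 and 9.33 CPM in WT (-3.09 ± 0.57 (SE; adjusted p = 0.00592)). The mature sequences of the higher miRNAs are given from RefSeq (GRCm38.p6) with the seed, bases 2 to 8, in capitals; no seed is shared, and which arm of a hairpin was counted is not given in the sources used here.
mmu-miR-410-3p: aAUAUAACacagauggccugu
mmu-miR-671-5p: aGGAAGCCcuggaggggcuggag
mmu-miR-27a-3p: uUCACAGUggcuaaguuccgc
mmu-miR-192-5p: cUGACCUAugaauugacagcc
mmu-miR-23a-3p: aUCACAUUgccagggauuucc

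Of mRNAs, Chl1, a neural cell adhesion molecule, was higher (4.10, 4.34 and 5.93 CPM in RM, against 0.828, 0.925 and 1.87 CPM in WT; 2.01 ± 0.44 (SE; adjusted p = 0.0112)), as was Map3k13, a kinase of the JNK pathway (2.31 ± 0.64 (SE; adjusted p = 0.0491)). Tpgs2, a subunit of the tubulin polyglutamylase complex, was at 1.99 ± 0.40 (SE; adjusted p = 0.00573). Chl1 lost its call without WT mock library 1 or 2, and Map3k13 without any 1 of the 6 mock libraries. Of 12 other structured RNAs, Vaultrc5, the vault RNA, was the 1 called, with 131, 102 and 82.4 CPM in the RM libraries, against 40.6, 35.9 and 46.0 CPM in the WT libraries (1.37 ± 0.31 (SE; adjusted p = 0.0138)). That call was lost without RM mock library 1 or 2 and without WT mock library 1 or 2.

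Box snoRNAs took larger shares of RM counts, but no single one was called. The difference in share was 7.42 points for C/D and 0.140 for H/ACA box snoRNAs. With Lars2 and rRNA features out of the total it was 6.27 and 0.102 points. The groups then overlapped, with an exact two-sided permutation p of 0.2 for each. C/D box snoRNAs direct the methylation of ribose in rRNA, and of the 71 tested none was called, with a median of 0.65 and 69 above 0. H/ACA box snoRNAs direct the making of pseudouridine, and of the 37 tested none was called (median 0.43), nor any of 9 small Cajal body RNAs (median 0.60). With no filter on low counts 8 C/D, 1 H/ACA and 2 Cajal body RNAs were called higher, with the 6 mock libraries alone 2, 1 and 1, and with scaling by total counts 1 C/D RNA. Snora73a had 818, 401 and 248 CPM in the RM libraries, against 190.0, 177 and 188 CPM in the WT libraries (1.40 ± 0.54 (SE; adjusted p = 0.167)), and its RM libraries differed more among themselves than its WT libraries. The C/D median moved between 0.20 and 1.14 as single libraries were left out, the H/ACA median between 0.19 and 0.82 and the Cajal body median between 0.25 and 0.99, and in share of counts RM library 3 (11.33%) and WT library 3 (11.27%) lay next to each other.

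The transcript of PKR was not called. Eif2ak2 had 7.75, 11.2 and 7.71 CPM in the RM libraries, against 6.90, 9.72 and 8.09 CPM in the WT libraries, with overlap of the groups and 0.10 ± 0.30 (SE; adjusted p = 0.898). This count covers the whole transcript and so does not check which form of PKR a library came from. None of 16 mRNAs of PKR and its protein partners was called, nor any of 20 of cholesterol synthesis, 36 of the extracellular matrix, 29 of the actin cytoskeleton, 10 Hox genes, 6 snoRNA host genes, 5 long noncoding RNAs, 3 spliceosomal RNAs or 5 genes of the sex chromosomes. Of 14 fibroblast markers tested, of 15 listed, 1 was lower (S100a4, -0.81 ± 0.19 (SE; adjusted p = 0.0160), lost without RM mock library 1, 2 or 3 and without WT mock library 1 or 2), with a median of -0.23 and a summed level of 9332 to 15030 CPM of all counts in RM and 9291 to 13310 in WT. Over all features tested, 3.03% were called lower and 0.715% higher. Markers of other cell types were rare. None of the macrophage and lymphocyte, epithelial or adipocyte markers reached the level needed for testing, and 1 endothelial, 2 muscle and 2 neural markers did and were not called. Summed levels in RM and WT were 2.49 to 4.78 and 2.10 to 2.55 CPM for the macrophage and lymphocyte list, and 0 in both for the adipocyte list.

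With palmitate, in other libraries of the same dataset, most features called without it differed in the same direction, whereas most box snoRNAs, none of them called, lay on the other side of 0. In that comparison 388 of 11328 features were called (3.43%), 282 lower in RM (2.49%) and 106 higher (0.936%), and without the shallow RM palmitate library 612. Of the 343 lower without palmitate, 338 were below 0 with it and 192 were called lower, with a median of -1.30. Of the 81 higher, 78 were above 0 and 17 were called higher. mt-Nd6 was at -4.75 (adjusted p = 1.50e-04), Eapp at -4.13 (adjusted p = 2.01e-04), Gm23935 at -5.12 (adjusted p = 1.64e-04) and Ifit1 at -2.56 (adjusted p = 2.28e-04). C/D box snoRNAs, above 0 in 69 of 71 without palmitate, were below 0 in 67 of 71 with it (median -0.67), H/ACA box snoRNAs in 33 of 37 (median -0.69) and small Cajal body RNAs in 7 of 9 (median -0.30), and none was called in either direction. Without the RM palmitate library of 254762 counts these medians were -0.55, -0.65 and -0.45. The change of the log2 fold change with palmitate was below 0 in all 71 C/D box snoRNAs (median -1.28) and in 36 of 37 H/ACA box snoRNAs (median -1.12), with none called. Histone mRNAs had a median of -0.06 with palmitate, and 2 of 62 were called lower. Of the 113 mRNAs with an inverted repeat 24 were called lower (21.2%), against 143 of 9651 without one (1.48%), and all 27 of the mock comparison were below 0. The test of the difference between both treatments called none of 11328 features at an adjusted p under 0.05 (469 had p under 0.05 before adjustment), and DESeq2 called none. No filter on low counts gave 88.

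In dataset B the same comparison was made in separate libraries. There 1760 of 12466 features were called (14.1%), 778 lower in RM (6.24%) and 982 higher (7.88%). Of the 343 features lower in dataset A, 322 were tested in B, of which 37 were called lower, 4 were called higher and 237 were below 0, with a median of -0.26. Of the 81 higher, 76 were tested, 17 were called higher and none lower. The features had been picked for their difference in dataset A, which by itself makes a smaller difference in B likely, so these counts are a description. Over all features the difference between datasets itself was called in 319 of 12683 (2.52%), positive (B over A) in 202 (1.59%) and negative in 117 (0.922%). Leaving out any 1 mock library of dataset A gave 148 to 203 such features, and leaving out RM library 2 or 3 or WT library 1 or 2 of dataset B gave 155 to 196.

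Groups of features kept their direction in B to different degrees. Of the 9 minus-strand mitochondrial features 1 was called lower in B, with a median of -1.16, and of 26 plus-strand features 1, with a median of -0.13. mt-Nd6 was at -1.76 (adjusted p = 0.0823) in B and mt-Ti at -3.27 (adjusted p = 0.0504). mRNAs with an inverted repeat did not stand apart from others in B, where 8 of 121 (6.61%) were called lower, against 726 of 10610 without one (6.84%), and their median was 0.03. Rpa1, at -2.99 in A, was at 0.10 (adjusted p = 0.701) in B, with a difference between datasets of 3.06 (adjusted p = 4.75e-06). Eapp was at -0.42 (adjusted p = 0.126) in B, with a difference of 4.05 (adjusted p = 2.07e-05). For mRNAs with a repeat the difference between datasets was positive and called in 22 of 120, and negative and called in none, against 123 and 111 of 10654 without one. Histone mRNAs called lower numbered 7 of 62 in A and 17 of 63 in B (median -0.72 in B), beside 6.24% of all features in B. Nuclear tRNA features called lower numbered 51 of 221 in A and 3 of 233 in B (median -0.36 in B). Of 11 interferon-induced RNA sensors and effectors 1 was called lower in B (median 0.15). Among 29 other interferon-stimulated genes tested in B, 4 were called lower and 2 higher (median -0.11). C/D box snoRNAs, none called in A, had 24 of 70 called higher in B (median 0.94), and H/ACA box snoRNAs 28 of 37 (median 1.34). Over all features in B 7.88% were called higher. Both snoRNA medians lay above 0 in the mock libraries of A (0.65 and 0.43) and below 0 in its palmitate libraries. The difference between datasets was called in none of 63 histone mRNAs, none of 71 C/D box snoRNAs and 1 of 37 H/ACA box snoRNAs. Features under a miRNA name had a median of -1.65 in B, with 150 of 174 below 0, against a median of 0.12 in A. In B 8 of the 174 were called higher and 1 lower. For miRNAs the difference between datasets had a median of -1.73, and it was called in 3 of 200, all negative. Mir410 and Mir27a were at -1.20 (adjusted p = 0.317) and -1.24 (adjusted p = 0.131) in B.

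**Figure D5:**
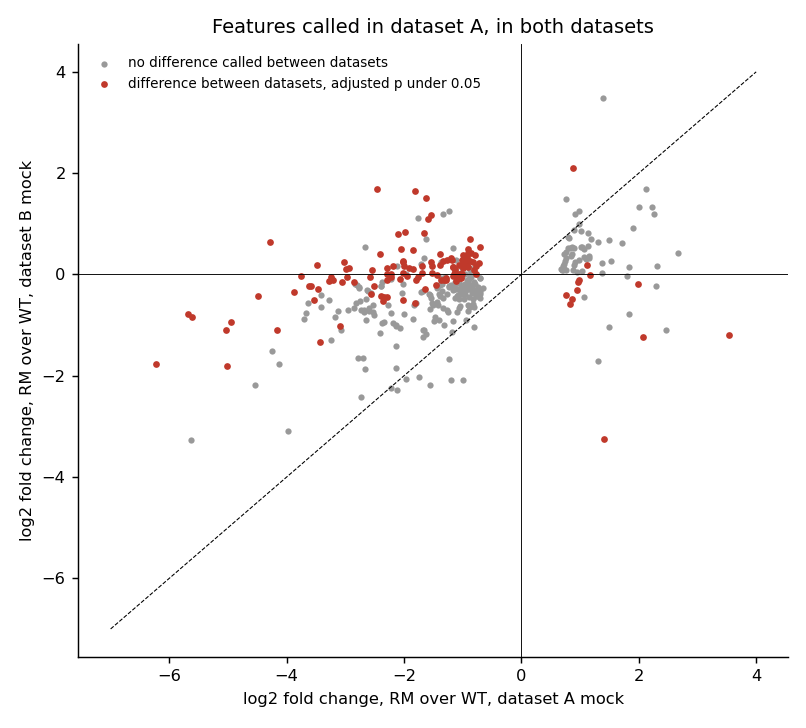
Features called between RM mock and WT mock in dataset A and tested in both datasets, with the log2 fold change, RM over WT, in dataset A on the horizontal and in dataset B on the vertical axis (dashed, equal values; red, difference between datasets called at an adjusted p under 0.05). Most points at the left lie above the dashed line, in a band around the median of -0.26 in dataset B.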

How the data were processed

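RNA from PKR immunoprecipitates of MEF was sequenced. The submitters' processing notes name CASAVA 1.7.0 and 1.8.2, Novoalign and the build mm9. The authors deposited raw counts for each feature in each library, and neither the counter nor its use of strand is given in the sources used here. A further 60 columns of values per sample were not used. Features with an Ensembl identifier numbered 29777, of which 25755 took their symbol from GENCODE M21. Of the features, 57 in 11 sets had near-identical counts, as copies of 1 sequence can have.

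The counts of all 12 libraries of dataset A were fitted together with edgeR 4.0.16 (R 4.3.3; TMM scaling, filterByExpr with a minimum count of 10, robust quasi-likelihood, 1 mean per group), with RM mock minus WT mock as contrast and Benjamini-Hochberg adjustment over all features tested, at a threshold of 0.05. The biological coefficient of variation was 0.22. The difference by dataset was fitted on 24 libraries. Fits were tested on simulated data. DESeq2 1.42.0, other scalings, no filter, a block for replicate number and leaving out libraries were the alternatives.

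Named features were the 12 highest and 12 lowest called with a mean of at least 10 counts and no overlap, the 10 most abundant called, called members of the lists (at most 8 of lists over 40 tested; up to 2 uncalled members where none was called), Eif2ak2 and overlapping partners. The features with inverted repeats, the nuclear tRNAs, the uncalled mitochondrial features and the family of 56 or 57 bases were added after their values had been seen. The members and lists were chosen with earlier results of these data known. Inverted repeats were sought with BLASTN 2.17.0+ on the longest protein-coding GENCODE M21 transcript of 10828 of 10837 genes, e-value under 1e-3. GENCODE and RefSeq sequences belong to GRCm38 and were joined by name or identifier, never by coordinate.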

Additional observations from a re-analysis of the deposited data

Results flagged for a closer look

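The difference between RM and WT was set beside its counterpart in dataset B by a test of the difference of both log2 fold changes (B minus A), and 319 features passed. Values above 0 below mean that RM lay less far below WT, or further above it, in dataset B. The features are those named above whose difference passed. Since they were named for their values in dataset A, the sizes are a description.

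Mitochondrial and abundant features were among them. The difference of log2 fold changes was 4.45 for mt-Nd6, 4.74 for mt-Ts1 and 3.19 for mt-Nd5. In the family of 56 or 57 bases it was 3.95 for Gm23935, 3.32 for Gm23388 and 2.05 for Gm25911. The 5.8S feature n-R5-8s1 stood at 3.06 and ENSMUSG00000093337 at 2.40.

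Among mRNAs with an inverted repeat the difference of log2 fold changes was 4.05 for Eapp, 3.68 for Wdr76, 3.53 for Nmnat1 and 3.11 for Rnf168. It was 3.06 for Rpa1, 3.05 for Car5b, 2.88 for Slc35e2 and 2.66 for Pxmp4. Fbxl18 stood at 2.31, Deptor at 2.20, Il17rd at 2.02 and Nudt21 at 1.86.

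Of interferon-stimulated and imprinted genes, Bst2 had a difference of 2.46, Dtx3l of 1.65, Gbp3 of 1.21, Cdkn1c of 1.90 and Dlk1 of 0.94. Features higher in RM in dataset A had negative differences, -4.78 for Mir410, -3.36 for Mir27a and -2.22 for Tpgs2.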

How the results depend on the processing

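Against 424 features called between RM mock and WT mock, scaling by total counts gave 240 (63 higher in RM), no filter 723 (215 higher), the 6 mock libraries alone 1552 (608 higher; 403 of the 424 remained), and leaving out RM palmitate library 2 778 (242 higher). Leaving out 1 mock library gave 200 to 308, DESeq2 302 and relative log expression scaling 428. Without overlapping or near-identical features, a setting chosen after seeing the data, 291 were left. A replicate block gave 448. Deviations of same-numbered libraries from their group means had correlations of -0.16, 0.01 and -0.22. Deviations of 3 libraries from their own mean depend on each other, so these values cannot settle whether the numbers pair the samples. With palmitate, leaving out RM library 2, a setting chosen after seeing the data, gave 612 features in place of 388. The palmitate interaction called 88 features with no filter, against 0. The difference between datasets was called in 131 with total counts and in 148 to 461 without 1 library. Total counts moved the median of all features to 0.18, and with it the medians of histones (-0.37), miRNAs (0.34), ribosomal proteins (0.082), imprinted mRNAs (-0.37) and fibroblast markers (-0.033). With no filter the medians of imprinted mRNAs and nuclear tRNAs were -0.33 and -0.61, and with 6 libraries that of mitochondrial tRNAs was -2.59. Without single libraries mitochondrial tRNAs ran from -2.67 to -2.29, histones from -0.63 to -0.36, rRNA features from -1.27 to -0.83 and fibroblast markers from -0.30 to -0.083. An inverted repeat of at least 200 bases, chosen after seeing the data as was 60, left 2 lower mRNAs of 9, and 60 gave 35 of 182. All other settings kept the count between 21 and 37. With Lars2 and rRNA out of the total, differences in share (RM minus WT, points) became -14.2 for miRNA-annotated features, -0.000714 for snRNA (0.216 before), -0.0290 for histones, -0.0280 for interferon-stimulated mRNAs, -1.12 for mitochondrial RNAs, -0.865 for nuclear tRNAs, -5.63 for other features (1.78 before) and 0.0411 for ribosomal proteins. Counting near-identical sets once gave 0.325 for snRNA and 0.160 for ribosomal proteins. Of 134 called features named or listed, 81 were called under all 14 alternatives, and none reversed. The cause of these changes was not tested. Counts of a few reads per library limit the rarer miRNAs.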

Other observations

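Features annotated as snoRNA outside the 2 box lists held 35.1%, 31.6% and 25.9% of counts in RM libraries, against 12.5%, 11.7% and 18.4% in WT libraries. snRNA-annotated features held 0.983%, 1.08% and 1.17% in RM, against 0.804%, 0.868% and 0.906% in WT. Ribosomal protein mRNAs together held 0.409%, 0.369% and 0.468% in RM, against 0.341%, 0.300% and 0.265% in WT, while 5 of their 77 members tested were called lower. In dataset B 11 of 21 cholesterol synthesis mRNAs were lower in RM (median -0.41), beside 6.24% of all features tested there. In dataset A none of 20 was called, with a median of 0.24. Long noncoding RNAs had 4 of 5 called higher in RM in dataset B, beside 7.88% of all features tested there. None of 5 was called in dataset A, where their median was 0.54. The difference between datasets was called in 2 of 21 cholesterol synthesis mRNAs and 1 of 5 long noncoding RNAs, beside 2.52% of all features.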
